A study of Mus musculus with 6 samples.

Results

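The genes described here are 10 membrane carriers that bring amino acids and glucose into the cell and move lactate across its membrane. They are Slc7a5 and Slc3a2, Slc1a5, Slc38a1 and Slc38a2, Slc7a1, Slc2a1 and Slc2a3, and Slc16a1 and Slc16a3. They were chosen by name, and a gene was represented by the probe set with the highest mean over the 6 arrays among those that the array annotation ties to that gene alone. All 10 genes were measured, by 22 of the 45101 probe sets, and they are 10 of the 18193 genes tested. Expression was read on Affymetrix mouse 430 2.0 arrays from RNA of germinal centre B cells of the spleen, the dividing and selected B cells of an immune response, purified with magnetic beads after the mice had received sheep red blood cells as antigen. ImHABCL6/Uchl1 mice carried a transgene for the deubiquitinating enzyme Uchl1 on the ImHABCL6 background (3 arrays). ImHABCL6 mice, which express a tagged form of the germinal centre repressor BCL6 from the immunoglobulin heavy-chain locus, were the reference (3 arrays), so the BCL6 allele is common to both groups. The promoter of the Uchl1 transgene and the age and sex of the mice were not stated in the labels.

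Germinal centre B cells grow and divide quickly and depend on nutrient uptake. Slc7a5 (LAT1) and the heavy chain Slc3a2 (4F2hc, CD98) form a heterodimer that exchanges intracellular glutamine for leucine and other large neutral amino acids, and the incoming leucine activates mTORC1. Slc2a1 (GLUT1) and Slc2a3 (GLUT3) admit glucose by facilitated diffusion, and Slc16a1 (MCT1) and Slc16a3 (MCT4) carry lactate together with a proton and need the chaperone basigin (Bsg) to reach the surface. MYC, hypoxia-inducible factors and the amino acid response factor ATF4 are known regulators of genes of this kind.

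The array values are log2 levels, and every difference below is ImHABCL6/Uchl1 minus ImHABCL6. Array medians ranged over 5.56 to 5.67. Uchl1 read 5.96, 5.87 and 6.02 in ImHABCL6/Uchl1 arrays against 5.01, 4.999 and 5.02 in ImHABCL6 arrays, with a difference of 0.94 (limma adjusted p = 0.638), so the labels and the transgene's own signal went together. Red-cell precursor transcripts were present in all preparations and varied between mice. The mean of the 14 measured erythroid markers was 8.82, 10.56 and 10.06 in ImHABCL6/Uchl1 replicates 1 to 3 and 10.26, 10.76 and 11.14 in ImHABCL6 replicates 1 to 3, a difference of -0.91 within the spread between arrays, with 13 of the 14 lower in ImHABCL6/Uchl1 cells (exact two-sided permutation p = 0.2, where 3 arrays against 3 allow no p below 0.1). Of the 14 erythroid markers, 8 were lower at an unadjusted limma p under 0.05, beside 3.85% of all genes. Without overlap 4 of them were lower, beside 5.49% of all genes. In bulk RNA such as this, fewer cells of a type and less RNA per cell cannot be told apart. The mean of 11 germinal centre B-cell markers was 11.08, 10.52 and 10.68 in ImHABCL6/Uchl1 arrays and 10.78, 10.67 and 10.68 in ImHABCL6 arrays. Of these, the B-cell surface protein Ms4a1 (CD20) averaged 13.74 in ImHABCL6/Uchl1 and 13.69 in ImHABCL6 arrays, and the germinal centre regulator Rgs13 averaged 11.67 in ImHABCL6/Uchl1 and 11.65 in ImHABCL6 arrays. The B-cell factor Pax5 averaged 8.71 in ImHABCL6/Uchl1 and 8.23 in ImHABCL6 arrays without overlap, a difference of 0.48 (limma adjusted p = 0.983), the 1 marker of the 11 with an unadjusted p under 0.05, and the largest lower differences were -0.21 (Mybl1) and -0.20 (Gcsam). The mean of T-cell markers (8 measured) stayed between 4.99 and 5.19 on every array, that of macrophage markers (12 measured) between 4.99 and 5.46, that of neutrophil markers (9 measured) between 5.01 and 5.92, that of megakaryocyte and platelet markers (8 measured) between 7.28 and 8.30 and that of plasma cell markers (7 measured) between 9.13 and 9.45.

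None of the 10 transporters passed the multiple-testing threshold, and neither did any other gene. The 2 members of smallest p had lower signals in ImHABCL6/Uchl1 cells, the lactate carrier Slc16a1 (1.74-fold) and the CD98 heavy chain Slc3a2 (1.42-fold), and their groups did not overlap. Slc1a5, a glutamine and neutral amino acid exchanger, averaged 1.48-fold lower and Slc2a1 averaged 1.29-fold higher, each with overlapping groups. With limma, 0 of 10 members had a Benjamini-Hochberg adjusted p under 0.05, beside 0% of all genes, and 2 of 10 (Slc3a2 and Slc16a1) had an unadjusted p under 0.05, beside 4.94% of all genes. Both were lower, and 3.85% of all genes were lower at that level. The arrays of the groups did not overlap for the same 2 members, both lower, beside 5.49% of all genes lower without overlap and 9.44% without overlap in either direction. Of the 10 members 7 had a mean below that of ImHABCL6 cells, beside 49.4% of all genes, and the median difference was -0.10 over the members and 0.0029 over all genes. Without ImHABCL6/Uchl1 replicate 1, the array of lowest erythroid signal, 4 of 10 members were lower, beside 51.9% of all genes, the median was 0.02 and 0 had an unadjusted p under 0.05, beside 7.31% of all genes. Without ImHABCL6 replicate 3, the array of highest erythroid signal, 6 were lower, beside 54.3% of all genes, and again 0 had an unadjusted p under 0.05, beside 2.13%. That count was 4 without ImHABCL6 replicate 1 (5.01% of all genes) and 1 without ImHABCL6 replicate 2 (2.71%).

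**Figure D1:**
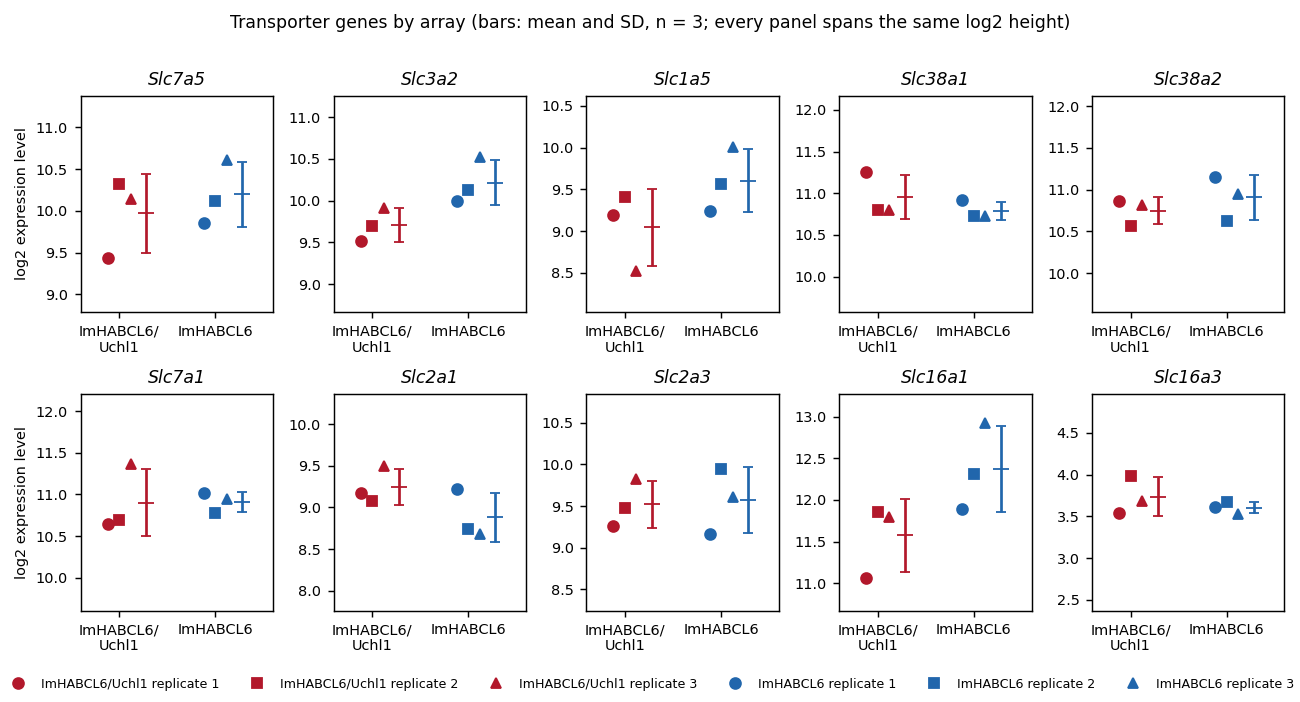
Log2 expression level of each transporter gene on each array (points), with the mean and SD of 3 arrays per group, ImHABCL6/Uchl1 on the left and ImHABCL6 on the right. For Slc3a2 and Slc16a1 all 3 ImHABCL6/Uchl1 arrays lie below all 3 ImHABCL6 arrays, and the other 8 genes overlap.

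The start regions of the 2 genes whose groups did not overlap are shown, with that of Slc2a1, which averaged higher, for contrast. Each runs from 250 bases before to 50 bases after the annotated start (RefSeq, GRCm38.p6), 5′ to 3′ on the gene's strand. They are chr19:8713848-8714147 on the minus strand for Slc3a2, chr3:104638414-104638713 on the plus strand for Slc16a1 and chr4:119108495-119108794 on the plus strand for Slc2a1. Capitals mark every match on either strand to CACGTG (the E-box bound by MYC) or ACGTG (the core bound by hypoxia-inducible factors), and the second motif lies within the first.
Slc3a2: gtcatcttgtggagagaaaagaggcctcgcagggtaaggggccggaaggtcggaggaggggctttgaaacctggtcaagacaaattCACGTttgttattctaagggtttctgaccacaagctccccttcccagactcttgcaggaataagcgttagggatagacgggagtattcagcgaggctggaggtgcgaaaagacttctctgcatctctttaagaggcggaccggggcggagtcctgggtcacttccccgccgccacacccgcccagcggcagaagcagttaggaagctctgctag
Slc16a1: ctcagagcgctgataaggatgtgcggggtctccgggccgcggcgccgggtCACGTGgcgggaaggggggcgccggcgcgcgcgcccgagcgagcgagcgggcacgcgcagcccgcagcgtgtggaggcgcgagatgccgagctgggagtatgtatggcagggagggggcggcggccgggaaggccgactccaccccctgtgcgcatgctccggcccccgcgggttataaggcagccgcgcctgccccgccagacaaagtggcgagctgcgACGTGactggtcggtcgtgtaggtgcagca
Slc2a1: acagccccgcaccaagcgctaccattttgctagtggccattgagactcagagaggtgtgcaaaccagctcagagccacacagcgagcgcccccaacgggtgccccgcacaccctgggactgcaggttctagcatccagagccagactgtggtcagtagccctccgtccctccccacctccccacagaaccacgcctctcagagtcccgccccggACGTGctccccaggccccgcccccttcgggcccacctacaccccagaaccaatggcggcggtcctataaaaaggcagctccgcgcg
The Slc16a1 window held the E-box, beginning 200 bases before the start, and a further ACGTG 21 bases after it. Slc3a2 held 1 ACGTG on the opposite strand 164 bases before the start, and Slc2a1 held 1 beginning 36 bases before it. Start regions were listed for 6 of the 10 members in 7 windows, with 2 for Slc7a1. ACGTG occurred in 4 of the 7, those of Slc3a2, Slc2a1, Slc16a1 and Slc16a3, and in 19.6% of all 32851 windows. CACGTG occurred in the Slc16a1 window alone of the 7 and in 7.15% of all windows. TGATGNAA (the ATF4 response element) and AGATAA (a form of the motif bound by GATA factors) were found in 0 of the 7 windows and in 3.97% and 11.2% of all windows. Other forms of the GATA motif were not searched, such as the tgataa near the 5′ end of the Slc16a1 window. These matches describe letters in the window and not binding.

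The LAT1 heterodimer was read by 1 probe set for each chain, and the groups separated for the heavy chain and overlapped for the light chain. Slc3a2, the glycoprotein chain that brings the complex to the surface, read 9.51, 9.70 and 9.91 in ImHABCL6/Uchl1 replicates 1 to 3 and 9.996, 10.13 and 10.52 in ImHABCL6 replicates 1 to 3. Every ImHABCL6/Uchl1 array lay below every ImHABCL6 array, the closest pair being ImHABCL6/Uchl1 replicate 3 and ImHABCL6 replicate 1. The means were 9.71 ± 0.20 and 10.21 ± 0.27 (SD, n = 3 each), a log2 difference of -0.51 (SE 0.18, 95% interval -0.92 to -0.09, limma adjusted p = 0.983, unadjusted 0.0227, exact permutation p = 0.1). The Slc3a2 difference kept its sign when any 1 array was left out (-0.62 to -0.35). It was -0.42 after quantile normalization (limma unadjusted p = 0.0694), -0.36 with array weights and -0.30 with the erythroid mean as a covariate.

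Slc7a5, the chain that transports, read 9.44, 10.33 and 10.14 in ImHABCL6/Uchl1 cells and 9.85, 10.12 and 10.62 in ImHABCL6 cells. ImHABCL6/Uchl1 replicate 1 was the lowest of the 6 arrays, and replicates 2 and 3 lay among the ImHABCL6 arrays. The difference of Slc7a5 was -0.23 (SE 0.27, 95% interval -0.86 to 0.40, limma adjusted p = 0.998, exact permutation p = 0.6), and the value came to 0.30 with the erythroid covariate and to 0.04 if ImHABCL6/Uchl1 replicate 1 was left out. Across the 6 mice Slc7a5 and Slc3a2 had a Pearson r of 0.73 (exact permutation p = 0.0944, adjusted p = 0.189 over 12 relations) and a Spearman rho of 0.49 (exact permutation p = 0.356, adjusted p = 0.533). Without the 2 arrays farthest from the median of Slc3a2, which were ImHABCL6 replicate 3 and ImHABCL6/Uchl1 replicate 1, r was -0.62, so the positive relation over all 6 arrays depended on those arrays. Within the groups of 3, each of which holds 1 of them, r was 0.72 in ImHABCL6/Uchl1 and 0.99 in ImHABCL6 arrays.

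Slc1a5 (ASCT2), which exchanges small neutral amino acids and supplies glutamine, had the widest spread within ImHABCL6/Uchl1 cells after Slc7a5. It read 9.20, 9.41 and 8.52 in ImHABCL6/Uchl1 arrays and 9.24, 9.57 and 10.01 in ImHABCL6 arrays. Replicate 3 of the transgenic mice was the lowest array, and replicate 2 lay between ImHABCL6 replicates 1 and 2. The difference was -0.56 (SE 0.27, 95% interval -1.19 to 0.06, limma adjusted p = 0.998, exact permutation p = 0.2). With array weights Slc1a5 differed by -0.94, without ImHABCL6/Uchl1 replicate 3 by -0.30, and its second probe set (1440379_at) differed by -0.31 (SE 0.21).

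Slc38a1 (SNAT1) and Slc38a2 (SNAT2) take up glutamine and other small neutral amino acids with sodium, and neither separated the groups. Slc38a1 read 11.26, 10.81 and 10.80 in ImHABCL6/Uchl1 arrays and 10.92, 10.72 and 10.73 in ImHABCL6 arrays, and ImHABCL6/Uchl1 replicate 1 stood above the other 5. Its difference was 0.16 (SE 0.16, 95% interval -0.22 to 0.54, limma adjusted p = 0.998), and 0.01 without that array. The second Slc38a1 probe set (1415903_at) read 9.76, 9.57 and 9.66 in ImHABCL6/Uchl1 arrays against 9.59, 9.27 and 9.26 in ImHABCL6 arrays, a difference of 0.29 (SE 0.14, limma adjusted p over all probe sets 0.999).

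Slc38a2, which is induced by amino acid shortage in many cells, read 10.86, 10.57 and 10.82 in ImHABCL6/Uchl1 arrays and 11.15, 10.62 and 10.95 in ImHABCL6 arrays. The groups interleaved, with replicate 2 the lowest array of each. The difference was -0.16 (SE 0.17, 95% interval -0.55 to 0.24, limma adjusted p = 0.998), and its other probe sets gave 0.13 (1429593_at) and -0.01 (1429594_at). Slc7a1 (CAT1), the carrier of arginine and lysine, read 10.65, 10.69 and 11.36 in ImHABCL6/Uchl1 arrays and 11.01, 10.78 and 10.95 in ImHABCL6 arrays. Both the 2 lowest arrays and the highest array for Slc7a1 were ImHABCL6/Uchl1 arrays, and the difference was -0.01 (SE 0.21, 95% interval -0.49 to 0.47, limma adjusted p = 0.998). The interval spans differences of nearly 0.5 either way, so with 3 arrays per group changes in Slc7a1 within that span were not excluded.

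**Figure D2:**
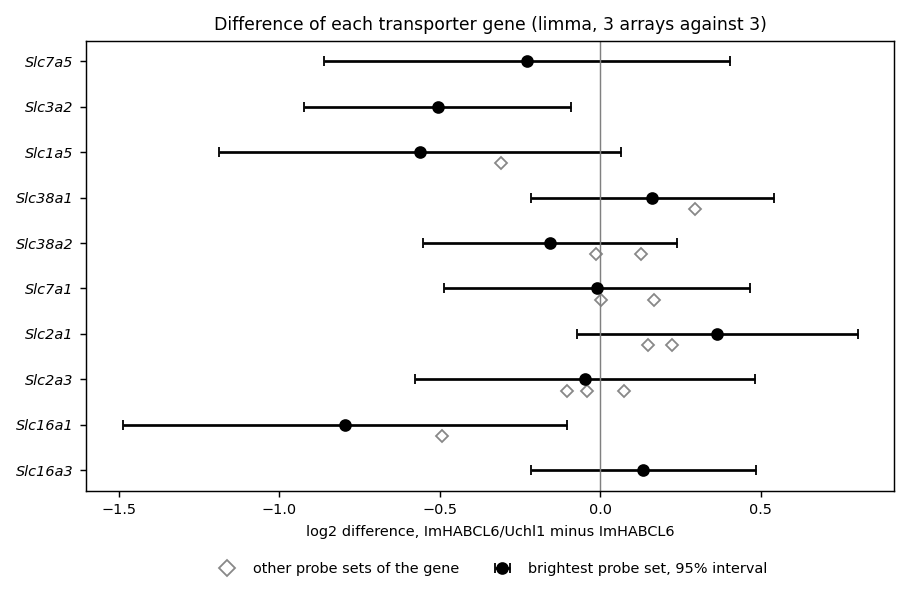
Log2 difference (ImHABCL6/Uchl1 minus ImHABCL6) of the 10 transporter genes, with limma's unadjusted 95% interval for the brightest probe set (filled circles) and the difference of each other probe set of the same gene (open diamonds). The intervals of Slc3a2 (-0.92 to -0.09) and Slc16a1 (-1.49 to -0.10) lie below 0, and the others include 0.

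Neither glucose carrier separated the groups. Slc2a1 read 9.17, 9.07 and 9.49 in ImHABCL6/Uchl1 arrays and 9.22, 8.75 and 8.68 in ImHABCL6 arrays. ImHABCL6 replicate 1 lay among the ImHABCL6/Uchl1 arrays, and the other 2 ImHABCL6 arrays lay below all of them. The means were 9.25 ± 0.22 and 8.88 ± 0.29 (SD, n = 3 each), a difference of 0.36 (SE 0.19, 95% interval -0.07 to 0.80, limma adjusted p = 0.998, exact permutation p = 0.3). All 3 Slc2a1 probe sets averaged higher in ImHABCL6/Uchl1 cells, the others by 0.22 (1426599_a_at) and 0.15 (1426600_at). The Slc2a1 difference kept its sign in every setting tried, from 0.15 without suffixed probe sets to 0.59 with array weights. After quantile normalization it was 0.45 (limma unadjusted p = 0.0357, adjusted p = 0.968).

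Slc2a3, a glucose carrier of high affinity, read 9.26, 9.48 and 9.83 in ImHABCL6/Uchl1 arrays and 9.16, 9.95 and 9.61 in ImHABCL6 arrays. The groups interleaved, with an ImHABCL6 array both lowest and highest. Its difference was -0.05 (SE 0.23, 95% interval -0.58 to 0.48, limma adjusted p = 0.998), and the sign turned in 6 of the 15 other settings. Of its 4 probe sets, 1421924_at and 1427770_a_at were dim, at 3.77 to 4.37 and 3.67 to 4.11.

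Slc16a1 had the widest range over the 6 mice of the 10 transporters, 1.85 on the log2 scale or 3.60-fold. It read 11.07, 11.86 and 11.80 in ImHABCL6/Uchl1 replicates 1 to 3 and 11.89, 12.30 and 12.92 in ImHABCL6 replicates 1 to 3. All ImHABCL6/Uchl1 arrays lay below all ImHABCL6 arrays, but ImHABCL6/Uchl1 replicate 2 and ImHABCL6 replicate 1 nearly met, at 11.86 and 11.89. The means were 11.57 ± 0.44 and 12.37 ± 0.52 (SD, n = 3 each), a difference of -0.80 (SE 0.30, 95% interval -1.49 to -0.10, limma adjusted p = 0.983, unadjusted 0.0290, exact permutation p = 0.1). The second Slc16a1 probe set (1446274_at), a dim one, differed by -0.49 (SE 0.21) with overlapping groups. The Slc16a1 difference ran from -1.04 to -0.52 when 1 array was left out, the smallest being without ImHABCL6 replicate 3, and was -0.25 with the erythroid covariate.

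Slc16a3, the lactate exporter of glycolytic cells, was read by 1 dim probe set, at 3.54, 3.99 and 3.68 in ImHABCL6/Uchl1 arrays and 3.61, 3.67 and 3.53 in ImHABCL6 arrays. The median level of the 18193 genes was 6.32, and no detection call came with the values, so whether Slc16a3 was expressed cannot be read from them. Its difference was 0.13 (SE 0.15, limma adjusted p = 0.998), and it was left out where dim genes were filtered.

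Slc16a1 varied between mice together with Bsg, the chaperone of both lactate carriers and a surface protein of red cells among many others. Bsg read 8.99, 10.01 and 9.91 in ImHABCL6/Uchl1 arrays and 10.03, 10.50 and 10.87 in ImHABCL6 arrays, a difference of -0.83 (SE 0.31, limma adjusted p = 0.983) with no overlap. The Bsg difference came to -0.21 with the erythroid covariate and to -0.51 if ImHABCL6/Uchl1 replicate 1 was left out. The 6 mice had the same order for both genes. Pearson's r was 0.98 (exact permutation p = 0.00139, adjusted p = 0.0167 over 12 relations) and Spearman's rho 1 (exact permutation p = 0.00278, adjusted p = 0.0333). Without the 2 arrays farthest from the median of Bsg, ImHABCL6/Uchl1 replicate 1 and ImHABCL6 replicate 3, r was 0.998. Within the groups of 3 it was 0.9996 in ImHABCL6/Uchl1 cells and 0.98 in ImHABCL6 cells. Such values do not single out Bsg. Among the 9095 other genes above the median level, 159 had an r above 0.95 with Slc16a1, the highest being Rab43 (0.99).

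The mean of the erythroid markers also varied with several transporters, in opposite directions, but none of these relations had an adjusted permutation p under 0.05. For Slc16a1 the Pearson r with it was 0.94 (exact permutation p = 0.0111, adjusted p = 0.05) and Spearman's rho 0.94 (exact permutation p = 0.0167, adjusted p = 0.0667), and r was 0.79 without ImHABCL6/Uchl1 replicate 1 and ImHABCL6 replicate 3, the 2 arrays farthest from the median. For Slc7a5 r was 0.91 (exact permutation p = 0.0167, adjusted p = 0.05), rho 0.71 (exact permutation p = 0.136, adjusted p = 0.233) and r without those 2 arrays 0.36. For Slc38a1, in the other direction, r was -0.94 (exact permutation p = 0.0167, adjusted p = 0.05), rho -0.77 (exact permutation p = 0.103, adjusted p = 0.206) and r without those 2 arrays -0.58. The relation of Slc7a5 rested on the 2 outer arrays, and that of Slc38a1 was weaker without them. Within each group of 3 arrays the r had the same sign as over all 6 for these 3 genes, at 0.98 in ImHABCL6/Uchl1 and 0.98 in ImHABCL6 arrays for Slc16a1, 0.996 and 0.97 for Slc7a5, and -0.96 and -0.88 for Slc38a1. Slc3a2 followed with r = 0.82 (exact permutation p = 0.0528, adjusted p = 0.127), rho = 0.83 (exact permutation p = 0.0583, adjusted p = 0.14) and 0.18 without those arrays. The remaining 6 members had r between -0.60 (Slc2a1) and 0.56 (Slc1a5), with adjusted permutation p from 0.373 to 0.806. Without the 2 outer arrays, which leaves 4, their r was -0.98 for Slc2a1, 0.91 for Slc1a5, -0.90 for Slc7a1 (0.17 over all 6), -0.64 for Slc38a2 (-0.14 over all 6), 0.27 for Slc2a3 and 0.33 for Slc16a3. The rho of Slc1a5 was 0.94 (exact permutation p = 0.0167, adjusted p = 0.0667) and that of Slc2a1 -0.83 (exact permutation p = 0.0583, adjusted p = 0.14). With the erythroid mean as a covariate the group differences were -0.25 (SE 0.21) for Slc16a1 and -0.30 (SE 0.19) for Slc3a2. Whether the red-cell signal had a part in the group differences was not tested.

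**Figure D3:**
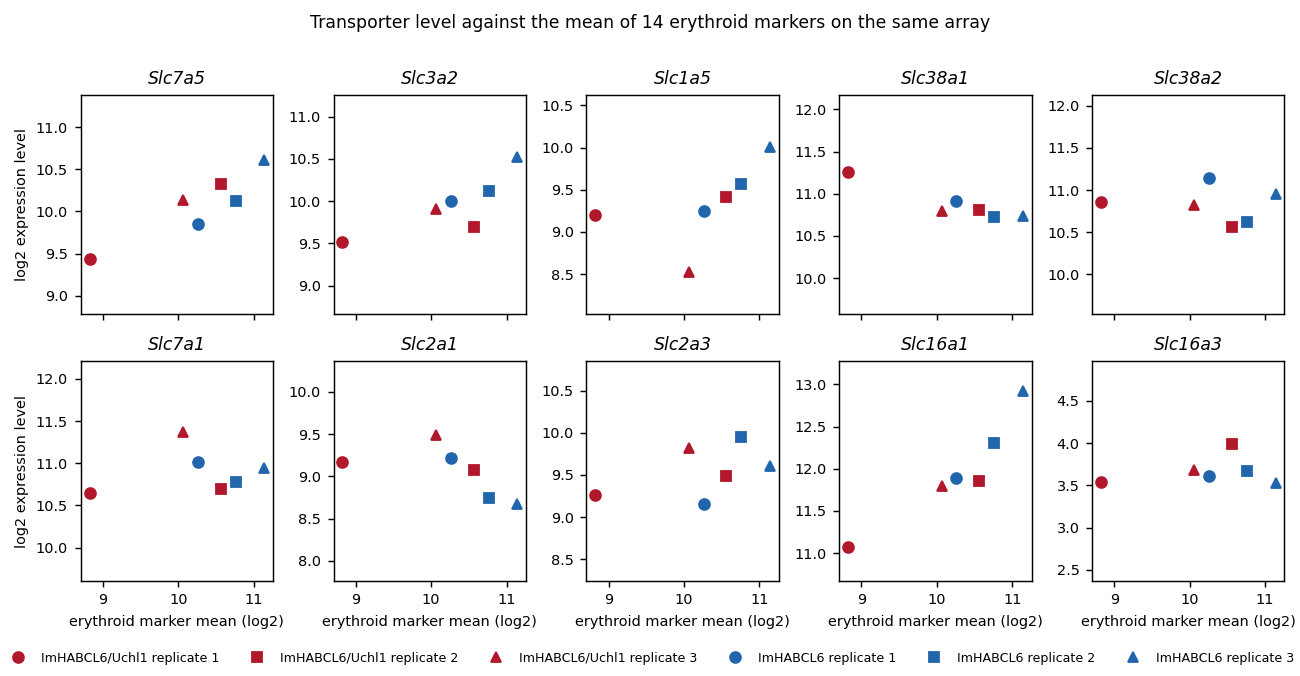
Log2 level of each transporter gene (vertical axis, every panel 2.6 units high) against the mean log2 level of the 14 measured erythroid markers (horizontal axis) on the same array, 1 point per array. Slc16a1 and Slc7a5 are highest and Slc38a1 is near its lowest where the erythroid mean is highest (11.1, ImHABCL6 replicate 3), and ImHABCL6/Uchl1 replicate 1 (8.82) is the leftmost point of each panel.

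Slc7a5, Slc3a2 and Slc16a1 were each lowest in ImHABCL6/Uchl1 replicate 1 and highest in ImHABCL6 replicate 3. That order was shown by 3 of the 10 members, by 4.56% of all genes and by 12 of the 14 erythroid markers. These are the arrays of lowest and highest mean of the same 14 markers, so their count is not independent of that mean. It was shown by 0 of 11 germinal centre B-cell, 0 of 8 T-cell, 0 of 9 neutrophil, 0 of 8 megakaryocyte and platelet, 0 of 7 plasma cell and 1 of 12 macrophage markers (C1qc). Of the related lists, 4 of 30 other amino acid, 0 of 10 other glucose and 2 of 12 other monocarboxylate transporters had that order. So did 2 of 11 chaperones and trafficking regulators, 2 of 26 transcription and nutrient-sensing regulators and 2 of 16 enzymes.

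The genes most like 3 of the transporters over the 6 arrays were picked by Pearson r among the 9095 other genes above the median level. They were the pseudogene Tes3-ps (0.99), Ago2 (0.98) and Aplp2 (0.98) for Slc7a5, Repin1 (0.99), Fuom (0.99) and Nceh1 (0.98) for Slc2a1, and Rab43 (0.99), Scrn3 (0.99) and Eef2k (0.99) for Slc16a1. With 6 arrays many genes reach such values, and an r above 0.95 was found for 16 genes with Slc7a5, 20 with Slc2a1 and 159 with Slc16a1.

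No other amino acid carrier passed the adjusted threshold. Of 30 measured, 9 averaged lower (beside 49.4% of all genes) and 21 higher in ImHABCL6/Uchl1 cells, with a median difference of 0.04. At an unadjusted p under 0.05 there was 1 in each direction, beside 4.94% of all genes. The lower one was Slc43a1 (LAT3), a carrier of leucine and other large neutral amino acids, at 7.94, 9.49 and 9.31 in ImHABCL6/Uchl1 arrays and 9.61, 10.10 and 10.59 in ImHABCL6 arrays. Its groups did not overlap, and the difference of -1.19 (SE 0.42, limma adjusted p = 0.983) shrank to -0.32 with the erythroid covariate and to -0.70 without ImHABCL6/Uchl1 replicate 1. The higher one was Slc6a6, the taurine carrier, at 10.54, 10.32 and 10.38 in ImHABCL6/Uchl1 arrays and 10.16, 9.97 and 10.06 in ImHABCL6 arrays, a difference of 0.35 (SE 0.13, limma adjusted p = 0.983) without overlap. The Slc6a6 difference stayed between 0.29 and 0.40 when any 1 array was left out. It was 0.23 with the erythroid covariate and 0.25 with the mean of its 4 probe sets. Slc38a5, a glutamine and glycine carrier, differed by -1.14 (SE 0.50) and Slc6a9, a glycine carrier, by -1.19 (SE 0.56), and with the erythroid covariate these were -0.06 and -0.0094. The mean of both Slc6a9 probe sets differed by -0.70.

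No other glucose carrier passed the adjusted threshold either. Of 10 measured, 5 averaged lower (beside 49.4% of all genes) and 5 higher, and 0 had an unadjusted p under 0.05 (beside 4.94%). The smallest p belonged to Slc2a2, the glucose carrier of liver and beta cells, which was dim (3.17 to 3.60). It differed by 0.23 (SE 0.14, limma adjusted p = 0.998). Slc2a4, the insulin-regulated carrier of muscle and fat, differed by -0.46 (SE 0.40), Slc2a9 by -0.14 and Slc5a2 by -0.18. With the erythroid covariate the sign turned for Slc2a4 (0.15) and Slc5a2 (0.07), and Slc2a4 ran from -0.95 to -0.20 when 1 array was left out. Of 12 other monocarboxylate carriers 7 averaged lower (beside 49.4% of all genes) and 5 higher. At an unadjusted p under 0.05 there was 1, lower, beside 3.85% of all genes lower at that level. That was Slc16a10 (TAT1), which carries aromatic amino acids and read 7.65, 9.27 and 8.89 in ImHABCL6/Uchl1 arrays and 8.98, 9.99 and 10.45 in ImHABCL6 arrays, a difference of -1.20 (SE 0.48, limma adjusted p = 0.989) that was -0.73 without ImHABCL6/Uchl1 replicate 1 and -0.21 with the erythroid covariate. Slc16a6 differed by -0.35 (SE 0.19), Slc16a4 by -0.50 (-0.21 with the mean of its 2 probe sets) and Slc16a13 by 0.31.

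Among 11 chaperones and regulators of carrier trafficking, 6 averaged lower (beside 49.4% of all genes) and 5 higher, and 0 passed the adjusted threshold. At an unadjusted p under 0.05 there were 2 lower (Bsg and Arrdc3) and 1 higher (Tbc1d1). Of all genes, 4.94% were at that level, and 3.85% were at that level and lower. Beside Bsg, Arrdc3, an arrestin-domain adaptor for ubiquitin ligases, read 6.78, 7.71 and 7.44 in ImHABCL6/Uchl1 arrays and 7.46, 8.49 and 9.04 in ImHABCL6 arrays, a difference of -1.02 (SE 0.40, limma adjusted p = 0.983) that came to -0.31 with the erythroid covariate and to -0.66 if ImHABCL6 replicate 3 was left out. Tbc1d1, a Rab GTPase-activating protein that restrains glucose carrier traffic, read 8.34, 8.78 and 9.15 in ImHABCL6/Uchl1 arrays and 8.10, 7.62 and 8.45 in ImHABCL6 arrays, a difference of 0.70 (SE 0.26, limma adjusted p = 0.983). Averaging its 4 probe sets gave 0.36. The kinase Sgk1 differed by -0.32 (SE 0.24).

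Among 26 transcription factors and nutrient sensors tied to these carriers, 15 averaged lower (beside 49.4% of all genes) and 11 higher, and 0 passed the adjusted threshold. At an unadjusted p under 0.05 there were 3, all lower (Ddit3, Sesn1 and Atf4), beside 3.85% of all genes lower at that level. Atf4, which drives transcription of many amino acid carriers, read 11.03, 11.13 and 10.95 in ImHABCL6/Uchl1 arrays and 11.46, 11.35 and 11.48 in ImHABCL6 arrays. The groups did not overlap, and the difference was -0.39 (SE 0.13, limma adjusted p = 0.983). Its target Ddit3 (CHOP) read 7.59, 8.02 and 7.77 in ImHABCL6/Uchl1 arrays and 8.34, 8.48 and 8.56 in ImHABCL6 arrays, a difference of -0.67 (SE 0.15, limma adjusted p = 0.854), and Sesn1, a sestrin that restrains mTORC1, differed by -0.66 (SE 0.18, limma adjusted p = 0.854). With the erythroid covariate these differences were -0.36 for Atf4, -0.46 for Ddit3 and -0.45 for Sesn1. Averaging both Ddit3 probe sets gave -0.41. Rictor, the mTORC2 subunit, differed by -0.30 (SE 0.19) and by -0.02 with the mean of its 5 probe sets.

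Of 16 measured enzymes that use the carried nutrients, 8 averaged lower (beside 49.4% of all genes) and 8 higher, and 0 passed the adjusted threshold. At an unadjusted p under 0.05 there were 2, both lower (Hk1 and Asns), beside 3.85% of all genes lower at that level. Hexokinase 1 (Hk1), which phosphorylates incoming glucose, read 9.19, 9.80 and 9.95 in ImHABCL6/Uchl1 arrays and 9.97, 10.24 and 10.49 in ImHABCL6 arrays, without overlap, and differed by -0.59 (SE 0.23, limma adjusted p = 0.983), or -0.36 without ImHABCL6/Uchl1 replicate 1 and -0.19 with the erythroid covariate. Asparagine synthetase (Asns), another ATF4 target, read 8.49, 8.92 and 9.72 in ImHABCL6/Uchl1 arrays and 9.89, 9.58 and 9.81 in ImHABCL6 arrays, a difference of -0.72 (SE 0.29, limma adjusted p = 0.992) that came to -0.21 with array weights and to -0.44 without ImHABCL6/Uchl1 replicate 1. Odc1, the ornithine decarboxylase of polyamine synthesis, differed by -0.37 (SE 0.17) and the aspartate aminotransferase Got1 by -0.24 (SE 0.26), which was 0.06 without ImHABCL6/Uchl1 replicate 2.

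**Figure D4:**
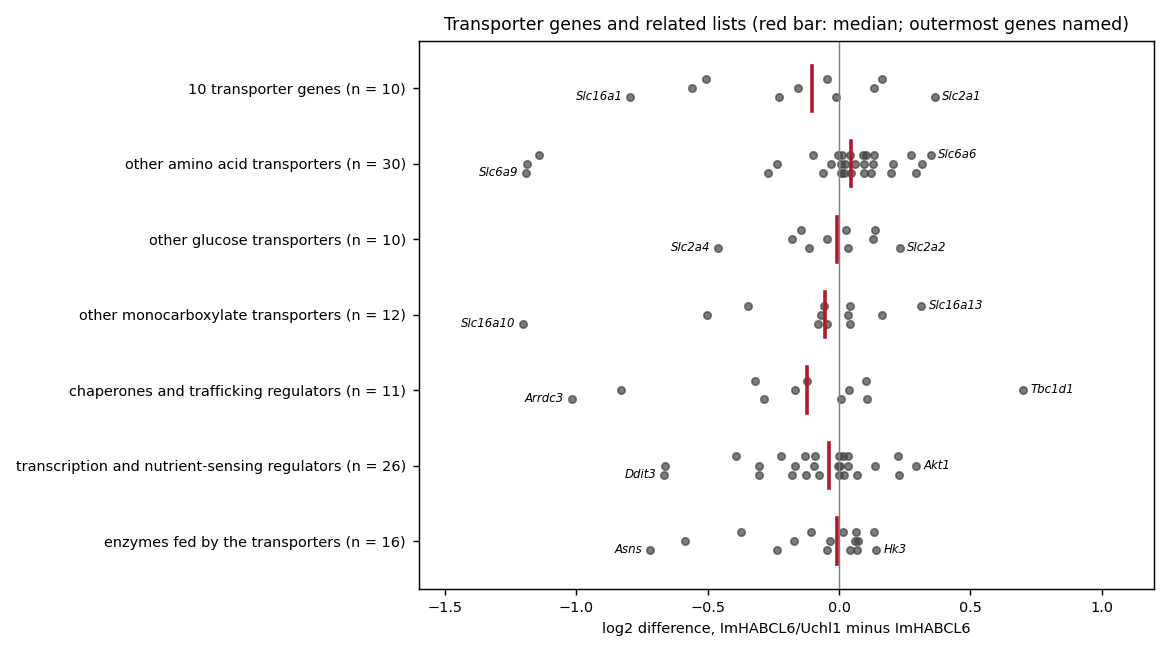
Log2 difference (ImHABCL6/Uchl1 minus ImHABCL6) of every measured gene, for the 10 transporter genes and 6 related lists, with the median of each as a red bar and the outermost gene on each side named. The list medians lie between -0.12 (chaperones and trafficking regulators) and 0.04 (other amino acid transporters), with single genes such as Slc43a1 (-1.19), Slc16a10 (-1.20) and Tbc1d1 (0.70) far from them.

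The differences moved with the setting. The range of each transporter over the 16 settings, which comprise the values as reported and 15 alternatives, is drawn in the plot of differences by setting. Slc3a2, Slc1a5, Slc38a2 and Slc16a1 stayed below 0 and Slc2a1 and Slc16a3 stayed above 0 in every setting that held them, while Slc7a5, Slc38a1, Slc7a1 and Slc2a3 took both signs.

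**Figure D5:**
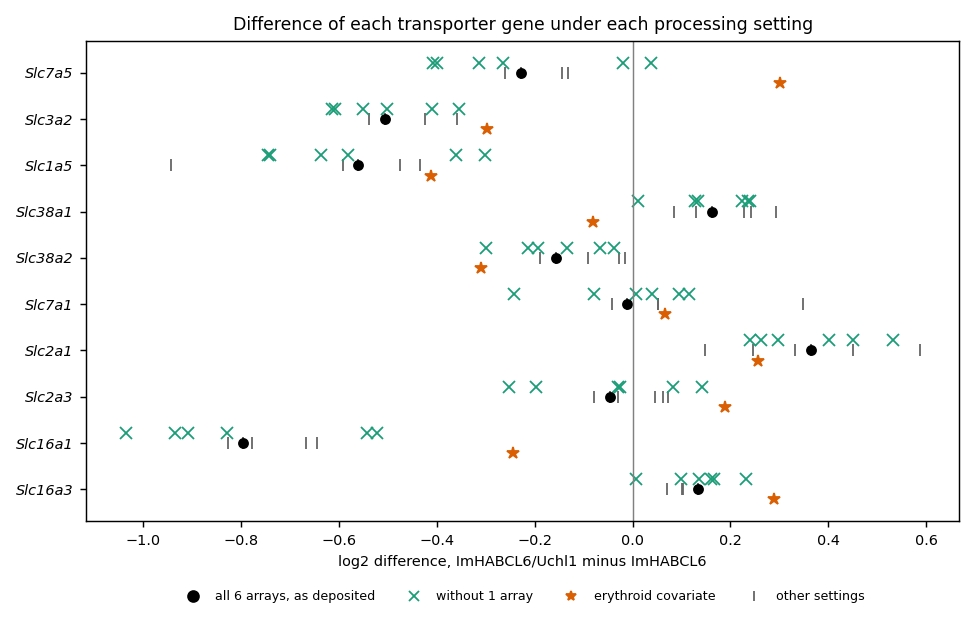
Log2 difference (ImHABCL6/Uchl1 minus ImHABCL6) of each transporter gene with all 6 arrays as deposited (circles), without 1 array (crosses), with the erythroid mean as a covariate (stars) and under the other settings (bars). Slc16a1 stays between -1.04 and -0.25 and Slc3a2 between -0.62 and -0.30, whereas Slc7a5 runs from -0.41 to 0.30.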

How the data were processed

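The authors deposited a log2 level for every probe set on every array. The submitters' processing notes name RMA and Partek, without versions or settings, and no genome build is named. RMA subtracts background, scales arrays to each other and summarises the probes of a set, which shrinks differences between dim signals. Deposited log2 values lay between 2.16 and 15.1.

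Genes were assigned from GEO's annotation of the array, checked by Entrez identifier against RefSeq (GRCm38.p6), which changed 0 symbols. Of 45101 probe sets 34945 had 1 symbol and 932 had several and were not used. For each of 18193 genes the probe set of highest mean was used, and 4 of the 10 members by one with a suffix (_a_at or _s_at). The comparison of the groups used limma 3.58.1 (R 4.3.3), two-sided, p-values adjusted by Benjamini-Hochberg across all genes and read at 0.05, and single values with exact permutation tests. The design text gives separate mice, so each array was treated as 1 animal. On simulated data with 18193 genes, for ImHABCL6/Uchl1 against ImHABCL6, the adjusted threshold found 0% of 50 genes with a log2 change of 0.5 and 76% of 50 with a change of 1. It also called 7 unchanged genes. The simulated noise was independent between genes and held no variation shared by genes on an array, so these shares need not hold here. In the real data Uchl1 differed by 0.94 and did not pass (limma adjusted p = 0.638). Members and lists were chosen with earlier results of these data known. Named genes were the members, up to 4 genes of smallest p in each related list, and 3 genes of highest r for 3 members. Correlations used exact permutation over pairings, adjusted over 12 relations. The alternatives are given in the closing section. Figures were drawn with matplotlib 3.10.9.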

Additional observations from a re-analysis of the deposited data

How the results depend on the processing

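No transporter and no other gene passed the adjusted threshold of limma in any of the 15 alternative settings, with 387 to 2819 genes at an unadjusted p under 0.05. Of 148 member differences under an alternative, 131 kept their sign and 17 turned. Leaving out 1 array gave -0.41 to 0.037 for Slc7a5, -0.24 to 0.12 for Slc7a1 and -0.25 to 0.14 for Slc2a3, and likewise 4 to 7 lower members, a median of -0.22 to 0.024 and 0 to 4 members with an unadjusted p under 0.05 (2.13% to 7.31% of all genes). Slc7a5 turned to 0.037 without ImHABCL6/Uchl1 replicate 1. Slc7a1 turned to 0.12 without that array, 0.094 without ImHABCL6/Uchl1 replicate 2, 0.040 without ImHABCL6 replicate 1 and 0.0065 without ImHABCL6 replicate 3, and Slc2a3 to 0.084 without ImHABCL6/Uchl1 replicate 1 and 0.14 without ImHABCL6 replicate 2. The erythroid covariate gave 0.30 for Slc7a5, -0.080 for Slc38a1, 0.066 for Slc7a1 and 0.19 for Slc2a3, and 0 members at an unadjusted p under 0.05 (15.2% of all genes). Array weights gave 0.35 for Slc7a1, 0.062 for Slc2a3, a member median of 0.017 and 4 members at an unadjusted p under 0.05 (15.5% of all genes). Quantile normalization gave 0.052 for Slc7a1 and 0.045 for Slc2a3. It kept 2 members at an unadjusted p under 0.05 (5.05% of all genes), but these were Slc16a1, lower, and Slc2a1, higher. Slc3a2 had an unadjusted limma p of 0.0694 after it. Averaging probe sets put Slc7a1 at 0.053. Leaving out suffixed probe sets, which drops Slc3a2, gave 0.073 for Slc2a3 and 1 member at an unadjusted p under 0.05 (4.94% of all genes). Counting every probe set, 12 of 22 were lower. The causes of these moves were not tested. Of the genes at an unadjusted p under 0.05, 78% were lower as deposited, 57.7% after quantile normalization, 87.9% after median centring, 89.1% without dim genes and 63.7% with array weights. Samples of the same replicate number deviated from their group means with r of 0.43, 0.19 and -0.26 across genes. The labels state no pairing, and with 3 arrays per group these values cannot tell whether the numbers pair mice. With the replicate block the differences must keep their values in this balanced design, such as -0.80 for Slc16a1 and -0.51 for Slc3a2. The limma SE fell from 0.30 to 0.17 for Slc16a1 (unadjusted p = 0.0027). For Slc3a2 the SE fell from 0.18 to 0.14 (unadjusted p = 0.0087). With the block, 0 genes passed the adjusted threshold. With 3 arrays per group and a single dim probe set for Slc16a3, small changes cannot be seen.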
